A study of Mus musculus with 20 samples.

Results

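The 95 genes described here had lower counts in the thoracic aorta as whole-body dose went up from 0 to 125 cGy, after both proton and gamma radiation. They were selected on their own dose order. Of 21078 genes in the sense-strand count table, 9817 averaged 50 counts or more over all 20 mice, and 9816 of them could be ranked in both types. Each was ranked by the larger of its Spearman rank correlations of count with dose in the 8 proton mice and in the 8 gamma mice at 0 to 125 cGy. The 100 genes with the lowest value were kept, and 5 of them, Zhx2, Dhrs3, Zfp426, Zfp120 and Zfp738, were set aside by name. For the 95 that remained the larger correlation lay between -0.905 and -0.575, with a median of -0.667. These correlations chose the genes, so the decline below 150 cGy is a description and carries no test.

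The mice were male wildtype C57BL/6 adults, 10 to 12 weeks old, with 1 mouse at each of 0, 5, 10, 25, 50, 75, 100, 125, 150 and 200 cGy of high energy protons (Proton) and 1 at each of the same doses of gamma rays (Gamma). The 0 cGy mouse of each type was a sham control, and all tissue was taken 4 h after irradiation. No dose had a replicate within a type, so every level below is that of 1 aorta. Poly(A)-selected RNA of the whole vessel was sequenced, and in such bulk tissue fewer cells of a type and less RNA per cell cannot be told apart.

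The genes belong to several well-known cell functions. Cytosolic chaperones such as the HSP90 and HSC70 proteins fold newly made and damaged proteins, and their transcripts respond to heat and other protein stress through heat shock factor. In the endoplasmic reticulum the unfolded protein response, of which the transcription factor XBP1 is a main arm, sets the level of folding factors for secreted proteins. In the vessel wall, actin genes and the secreted CCN proteins follow mechanical tension through serum response factor and YAP, and RNA-binding proteins of the SR and hnRNP families control splicing in every cell.

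RefSeq promoter sequences (build GRCm38.p6, 250 bases before to 50 bases after the start) were matched for 71 of the 95 genes. Those of 4 genes are shown because they stand for the groups that follow, a co-repressor, a splicing factor, an actin and an endoplasmic reticulum folding factor. Capitals mark CCAAT in either orientation, TATAAA, and the CArG box, the sequence that serum response factor binds. The windows are chr9:61372116-61372415 on the plus strand for Tle3, chr17:29032410-29032709 on the plus strand for Srsf3, chr11:120348446-120348745 on the minus strand for Actg1 and chr16:17132334-17132633 on the minus strand for Sdf2l1, each written in the direction of transcription.
Tle3: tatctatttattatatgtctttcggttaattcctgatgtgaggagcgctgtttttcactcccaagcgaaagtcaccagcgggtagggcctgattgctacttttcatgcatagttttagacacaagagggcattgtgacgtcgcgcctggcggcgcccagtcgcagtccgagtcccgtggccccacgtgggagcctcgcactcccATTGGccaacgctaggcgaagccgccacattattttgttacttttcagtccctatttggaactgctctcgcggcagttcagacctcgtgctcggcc
Srsf3: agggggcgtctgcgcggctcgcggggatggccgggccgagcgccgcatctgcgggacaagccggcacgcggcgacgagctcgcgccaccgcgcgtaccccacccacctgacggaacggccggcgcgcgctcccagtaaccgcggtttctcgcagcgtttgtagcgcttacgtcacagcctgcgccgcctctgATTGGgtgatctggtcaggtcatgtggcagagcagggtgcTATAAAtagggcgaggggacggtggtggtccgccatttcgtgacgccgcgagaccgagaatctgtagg
Actg1: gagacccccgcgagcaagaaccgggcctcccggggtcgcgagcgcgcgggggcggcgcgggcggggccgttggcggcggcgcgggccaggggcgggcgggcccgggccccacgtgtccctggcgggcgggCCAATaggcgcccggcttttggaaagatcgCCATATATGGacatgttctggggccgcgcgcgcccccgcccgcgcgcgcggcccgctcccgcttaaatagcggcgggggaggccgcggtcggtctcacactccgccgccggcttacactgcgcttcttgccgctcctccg
Sdf2l1: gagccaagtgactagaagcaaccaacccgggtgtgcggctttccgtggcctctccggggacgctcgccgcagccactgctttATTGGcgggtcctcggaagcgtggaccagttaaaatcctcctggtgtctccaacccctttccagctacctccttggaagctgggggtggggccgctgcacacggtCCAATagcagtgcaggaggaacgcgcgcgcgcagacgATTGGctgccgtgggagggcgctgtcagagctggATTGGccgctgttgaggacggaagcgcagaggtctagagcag
Searched on both strands of the 92 promoters of the matched genes, CCAAT was found in 43.5% against 37.4% of all 32851 promoters of the table. GGGCGG, the GC box, was found in 65.2% against 35.7%, and TATAAA in 4.35% against 13.6%. The E-box CACGTG was found in 7.61% against 7.15%. The heat shock element core GAANNTTC, in which N is any base, was found in 2.17% against 7.86%, in the promoters of Inhbb and Tmem33. The CArG box was found in 4 promoters, 4.35% against 1.63%, those of Actg1, Fbxl22, Rap1gap2 and Trip10. The short motifs can overlap each other, and these shares describe letters in a window and not bound sites. The 95 genes had passed a minimum mean count of 50, while the 32851 promoters were not limited to genes expressed in the aorta. The part of expression level in these differences was not tested.

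Total counts were between 6051657 and 6058006 per mouse. Markers of smooth muscle, the main cell of the aortic wall, were detected in every aorta, with the 15 listed genes summing to between 238684 and 467143 counts at 0 to 125 cGy. The lowest of these sums belonged to the Proton mouse at 75 cGy, in which brown fat markers summed to 16139 counts (Proton median at 0 to 125 cGy 3617.5), white fat markers to 56914 (median 7928) and cardiac muscle markers to 21007 (median 258). Of the 95 genes, 50 had their lowest Proton count below 150 cGy in that mouse, and the part of other tissue in this was not tested. Without it all 95 Proton correlations were still below 0, with a median of -0.71 over 7 mice against -0.69 over 8, and the highest was -0.46. Those 7 mice had also chosen the genes, so this outcome was largely set by the rule and cannot show how far the decline depends on the 75 cGy mouse. When the whole ranking was repeated without both 75 cGy mice, 68 of the 100 genes were selected again.

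The decline had a different course in the 2 types. Relative to the sham mouse of its type, the median gene after protons stood at 1.12 at 5 cGy, at 1.01 at 10 cGy, at 0.967 at 25 cGy and at 0.932 at 50 cGy. It then stood at 0.782 in the 75 cGy mouse, at 0.931 at 100 cGy and at 0.856 at 125 cGy. After gamma rays the median gene stood at 0.981, 0.978 and 0.970 at 5, 10 and 25 cGy, and at 0.893, 0.869, 0.796 and 0.828 at 50, 75, 100 and 125 cGy. The Proton course therefore began with a step up, and the highest count was at 5 cGy in 61 of the 95 genes after protons but at 0 cGy in 37 and at 5 cGy in 28 after gamma rays. Counts at 5 cGy were above sham in both types for 35 of the 95 genes (36.8%), against 24.5% of all ranked genes. The 0 and 5 cGy mice are among those that chose the genes, so these shares are a description of the choice. The 5 cGy libraries also differed from sham in base composition. The deviation of a gene's count from its mean correlated with transcript GC content at 0.276 (Proton) and 0.284 (Gamma) at 5 cGy. In the sham libraries this correlation was 0.0519 and 0.0236. The part of base composition in the 5 cGy counts was not tested. The median count at 125 cGy was 0.856 of sham after protons, with a range over genes from 0.457 (Hspa8) to 0.989 (Taf15), and 0.828 after gamma rays, from 0.307 (Sdf2l1) to 0.988 (Atf7ip). In a linear fit the median log2 slope over 0 to 125 cGy was -0.27 per 100 cGy after protons and -0.30 after gamma rays, against 0.03 and -0.0024 for all 13124 genes tested. Over 0 to 200 cGy it was -0.03 and -0.14.

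**Figure D1:**
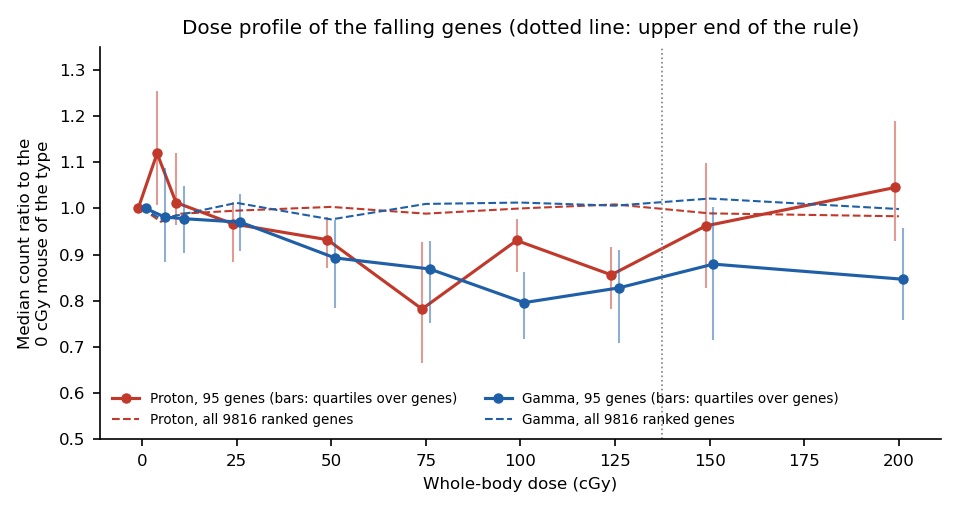
Median count of the 95 genes relative to the 0 cGy mouse of the type (vertical axis) against dose in cGy (horizontal axis), with bars for the quartiles over genes and dashed lines for the median of all 9816 ranked genes. The Proton line begins above 1 at 5 cGy, is lowest at 75 cGy and stands at 1.05 at 200 cGy, while the Gamma line stays below 1 and stands at 0.847 at 200 cGy. Points are shifted sideways by 1 cGy for legibility.

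Tle3 (mm9 chr9:61220190-61266297), a Groucho-family co-repressor that acts with Wnt and Notch pathway factors, had the lowest place in the ranking, with a rank correlation of -0.90 in both types. Its Proton counts at 0 to 125 cGy ran from 317 to 761 with a median of 426, and were 379 at 150 cGy and 456 at 200 cGy. Its Gamma counts ran from 359 to 627 with a median of 489.5, and were 341 and 361 at 150 and 200 cGy. The Gamma mice above 125 cGy thus lay at the lower end of the lower-dose Gamma range, 1 just below it and 1 just above its end, whereas both Proton mice lay inside the lower-dose range. Heyl, a Notch target repressor of the hairy family and the only member on the Notch list, went from 1934 counts at 0 cGy to 3966 at 5 cGy and 1865 at 125 cGy after protons. After gamma rays Heyl went from 2092 at 0 cGy to 3074 at 5 cGy and 1446 at 125 cGy, and was 1403 and 1115 at 150 and 200 cGy. In both types its highest count was in the 5 cGy mouse, and both upper-dose Gamma counts lay below the lowest of the other 8, 1444. Foxo1, the forkhead factor that AKT holds out of the nucleus, had Proton counts from 511 to 770 (median 620.5) and Gamma counts from 583 to 695 (median 636.5) below 150 cGy. Its counts at 150 and 200 cGy, 754 and 660 after protons and 655 and 613 after gamma rays, all lay inside those ranges. The transcription and chromatin group held 11 of the 95 genes, among them Etv6, Zbtb4, Zbtb26, Zeb1, the chromatin regulators Dmap1, Atf7ip and Usp22, and the DNA demethylase Tet1. Their counts at 125 cGy were 0.569 to 0.964 of sham after protons and 0.573 to 0.988 after gamma rays.

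Of the cytosolic chaperones, Hsp90aa1 and Hsp90ab1 (the inducible and the constitutive HSP90), Hspa8 (the constitutive HSC70) and Ahsa1 (an activator of the HSP90 ATPase) were members. Hspa8 had 5085 counts in the Proton sham mouse and 2322 at 125 cGy, and 10033 in the Gamma sham mouse and 5005 at 125 cGy. It then had 6160 and 7895 counts at 150 and 200 cGy after protons and 6317 and 7754 after gamma rays. The Proton mice at the 2 upper doses were on either side of the highest lower-dose Proton count of 6302, and the Gamma mice lay within their lower-dose range. Hsp90aa1 (chr12:111928815-111940938) had Proton counts from 1437 to 2429 (median 1811.5) and Gamma counts from 2055 to 3538 (median 2472.5) at 0 to 125 cGy. At 150 and 200 cGy it had 2448 and 2560 counts after protons, both above that range, and 2558 and 2879 after gamma rays, both within it. For Ahsa1 the lower-dose ranges were 542 to 739 after protons and 678 to 942 after gamma rays, with 689 and 733 and with 649 and 760 counts at the upper doses. None of the 4 passed the test at 150 and 200 cGy. A list of cytosolic chaperones and co-chaperones, drawn up after the members were known, had 57 genes in the test at 150 and 200 cGy, of which 5 passed as higher and 5 as lower, where 16.6% and 11.3% of all genes tested passed in these directions. Hspa8, Hsp90aa1 and Hsp90ab1 have processed pseudogenes with near-identical sequence, so part of their counts could depend on how such reads were assigned.

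In the endoplasmic reticulum group, Xbp1 (chr11:5420662-5425896) had 964 counts in the Proton sham mouse, 779 at 125 cGy, 895 at 150 cGy and 1139 at 200 cGy. After gamma rays it had 1237 counts in the sham mouse, 1387 at 25 cGy, 816 at 125 cGy, 780 at 150 cGy and 858 at 200 cGy. Sdf2l1, which works with the co-chaperone ERdj3 and whose promoter is printed above with 4 CCAAT boxes, had 88 counts in the Gamma sham mouse, 129 at 25 cGy, 27 at 125 cGy and 18 at 150 cGy. After protons Sdf2l1 stayed between 42 and 59 counts in all 10 mice. Manf, a secreted stress protein of the reticulum, likewise had its highest Gamma count at 25 cGy, 842 against 694 in the sham mouse and 346 at 125 cGy. Thus Xbp1, Manf and Sdf2l1 had in common a high Gamma mouse at 25 cGy, which was not seen in the Proton mouse at that dose. Edem1, a lectin of the degradation pathway for misfolded glycoproteins, had no such peak, with 407 to 562 Gamma counts below 150 cGy and 616 and 624 above. Of 33 genes tested on a list of reticulum folding and unfolded protein response genes, also drawn up after the members were known, 7 passed as higher and 2 as lower at 150 and 200 cGy. The shares of all genes tested were 16.6% and 11.3%.

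RNA-binding and splicing proteins made up 12 members. Srsf3 (chr17:29169618-29180311), a small SR protein, had Proton counts from 1124 to 1467 (median 1278) and Gamma counts from 1073 to 1324 (median 1235.5) at 0 to 125 cGy. At the upper doses it had 1209 and 1286 counts after protons and 1322 and 1108 after gamma rays, all inside those ranges. Tardbp, which encodes the RNA-binding protein TDP-43, had 1366 counts in the Proton sham mouse, 1140 at 125 cGy and 1637 and 1721 at 150 and 200 cGy. Its Gamma counts ran from 1382 to 1551 below 150 cGy and were 1834 and 1731 above, so that the 2 ranges did not overlap after gamma rays. Coil, which encodes coilin, the scaffold of Cajal bodies, had Gamma counts from 69 to 83 below 150 cGy and 57 and 59 above. The group also held Srsf7, Taf15, Hnrnpc, Hnrnpm, Sfpq, Raly, Phf5a, Tial1 and Cd2bp2, a component of the U5 particle of the spliceosome. Sfpq had the lowest share of its sham count at 125 cGy in the group, 0.548 after gamma rays, and 0.670 after protons. Of 57 genes tested on a list of such proteins drawn up after the members were known, 11 were members, and 11 passed as higher and 12 as lower at 150 and 200 cGy. Among all genes tested the shares were 16.6% and 11.3%.

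**Figure D2:**
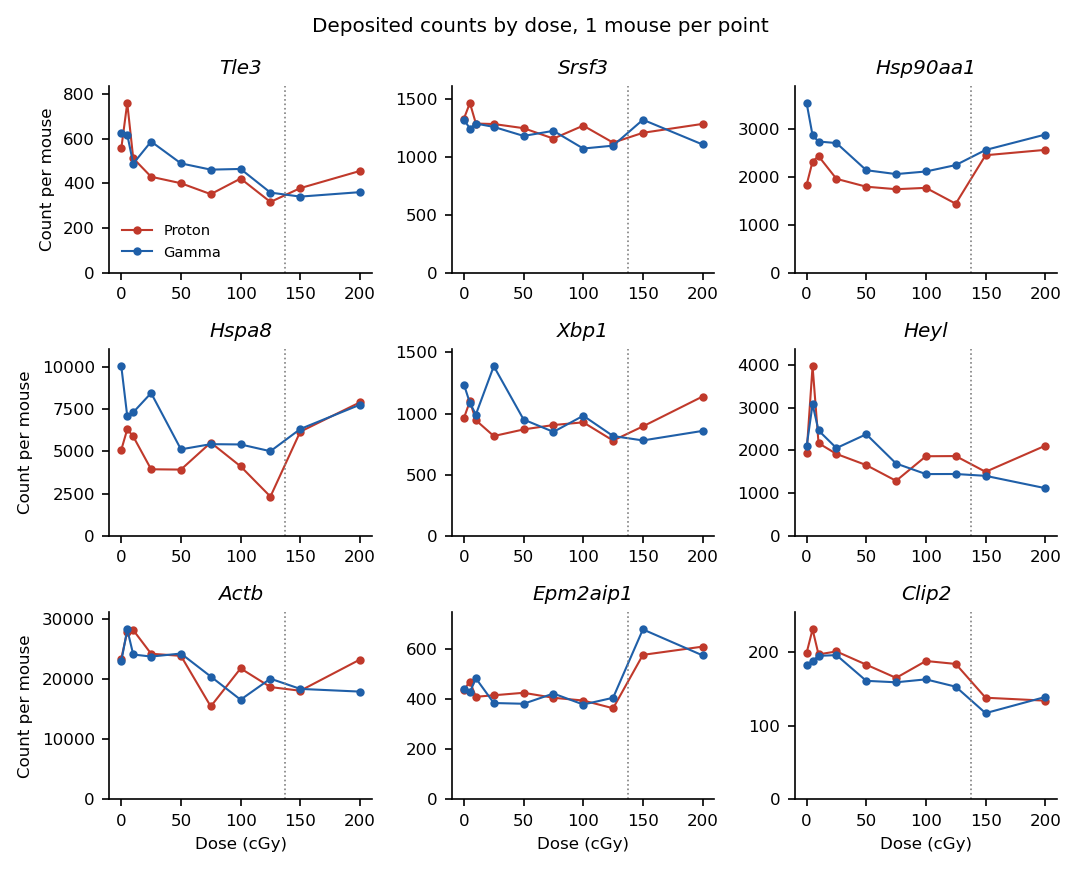
Deposited counts (vertical axis, from 0) of 9 of the genes against dose in cGy (horizontal axis), with 1 mouse per point, Proton in red and Gamma in blue, and a dotted line between 125 and 150 cGy. Tle3 and Heyl lie low after gamma rays at 150 and 200 cGy, Hsp90aa1 and Hspa8 are above their 125 cGy counts there in both types, and Epm2aip1 and Clip2 leave the lower-dose range on opposite sides.

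The largest group, with 21 genes, consisted of cytoskeletal, adhesion and small GTPase genes. Actb and Actg1 encode the cytoplasmic actins, and per kilobase of transcript Actb had the highest mean count of the 95 genes, 11512 per kilobase. Actb had Proton counts from 15462 (at 75 cGy) to 28206 and Gamma counts from 16584 to 28317 at 0 to 125 cGy, with medians of 23670.5 and 23391.5. It had 18080 and 23284 counts at 150 and 200 cGy after protons and 18388 and 17938 after gamma rays, all within the lower-dose ranges. Actg1 had 3862 and 3658 counts at 150 and 200 cGy after gamma rays, below all 8 lower-dose mice (3958 to 5161), and 3765 and 4562 after protons, within the lower-dose range of 3050 to 4929. The coding sequences of the 2 actins are nearly identical, so that some of their reads could have been exchanged. Myo1d, a class I myosin and the last gene inside the ranking, ran from 798 (at 75 cGy) to 1435 and from 1274 to 1653, with 1170 and 1195 and with 986 and 1276 counts at the upper doses. The other genes included Clip2 (a microtubule plus-end protein), Ssh1 (a cofilin phosphatase), Cap2 and Afap1 (actin-binding proteins), Trip10, Bcr, Sipa1l2 and Rap1gap2 (regulators and effectors of small GTPases), Krt18 and Cdh3. Of 33 genes tested on a list of actin, serum response factor and YAP-responsive genes drawn up after the members were known, 9 were members, and 5 passed as higher and 9 as lower at 150 and 200 cGy. Of all genes tested, 16.6% and 11.3% passed in these directions. The summed count of that list was lowest, at 124151, in the Proton mouse at 75 cGy, against a Proton median of 198948.

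Secreted, matrix and TGF-beta superfamily genes made up 7 members, and by median they stood lowest against sham at 125 cGy after protons (0.763) among the groups. Ctgf, the CCN protein CTGF and a target of YAP and TGF-beta, had 19119 counts in the Proton sham mouse, 8632 at 75 cGy and 12570 at 125 cGy. After gamma rays it had 19496 counts in the sham mouse, 21516 at 25 cGy and 11945 at 125 cGy, and then 10928 and 16511 at 150 and 200 cGy. Wisp2, another CCN protein, had 2585 and 1436 counts at 0 and 125 cGy after protons, and 2330 and 1584 after gamma rays. Inhbb, the beta B subunit of activin and inhibin, had 85 and 44 counts at 0 and 125 cGy after protons and 102 and 45 after gamma rays, with 162 counts in the Proton mouse at 5 cGy. Acvr1, the BMP and activin type I receptor ALK2, had Proton counts from 254 to 438 and Gamma counts from 311 to 428 below 150 cGy, and 229 counts in the Gamma mouse at 150 cGy. Pmepa1, a TGF-beta target that restrains the pathway, had 3503 and 3035 counts at 0 and 125 cGy after protons, and 3704 and 2946 after gamma rays. The metalloproteases Adam19 and Mmp28 completed the group.

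Of the signalling and metabolic genes, Gstt1 (chr10:75246558-75261329), a theta-class glutathione transferase, held the second place in the ranking. It had 385 counts at 0 cGy, 266 at 125 cGy and 289 and 398 at 150 and 200 cGy after protons. After gamma rays Gstt1 had 403, 303, 382 and 370 counts at the same doses. Stard4, a cytosolic cholesterol carrier, had 138 and 73 counts at 0 and 125 cGy after protons and 101 and 72 after gamma rays. Its Proton count of 149 at 150 cGy was above all 8 lower-dose mice and its count of 110 at 200 cGy was among them, and after gamma rays it had 90 and 70 counts, the last of them below the other 9. Irak2, a kinase of the interleukin-1 and Toll-like receptor pathway, had Proton counts from 483 to 858 (median 631.5) and Gamma counts from 550 to 761 (median 690), and all 4 of its upper-dose counts, 593 to 641, lay within both. Traf5, Akap5, Camkk1, Prr5l and Ctdspl were the other signalling genes, and Far1 and Msrb3 the other metabolic ones. Among the DNA damage genes, Atrip, the partner of the checkpoint kinase ATR, had 123 and 101 counts at 0 and 125 cGy after protons and 119 and 114 after gamma rays. The group also held Mdc1, which gathers repair factors at marked breaks, and Nsmce4a of the SMC5/6 complex. No member was on the list of p53 targets. Xpo1, Kpnb1 and Anp32b carry cargo out of the nucleus, carry it in, or work with such carriers. The remaining 20 members were membrane, trafficking or little-studied genes. Pmp22, a myelin and growth arrest protein that was the only member on any cell type list, had Proton counts from 1269 to 1913 and Gamma counts from 1419 to 1697 below 150 cGy. At 150 and 200 cGy it had 1336 and 1462 counts after protons and 1431 and 1207 after gamma rays.

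**Figure D3:**
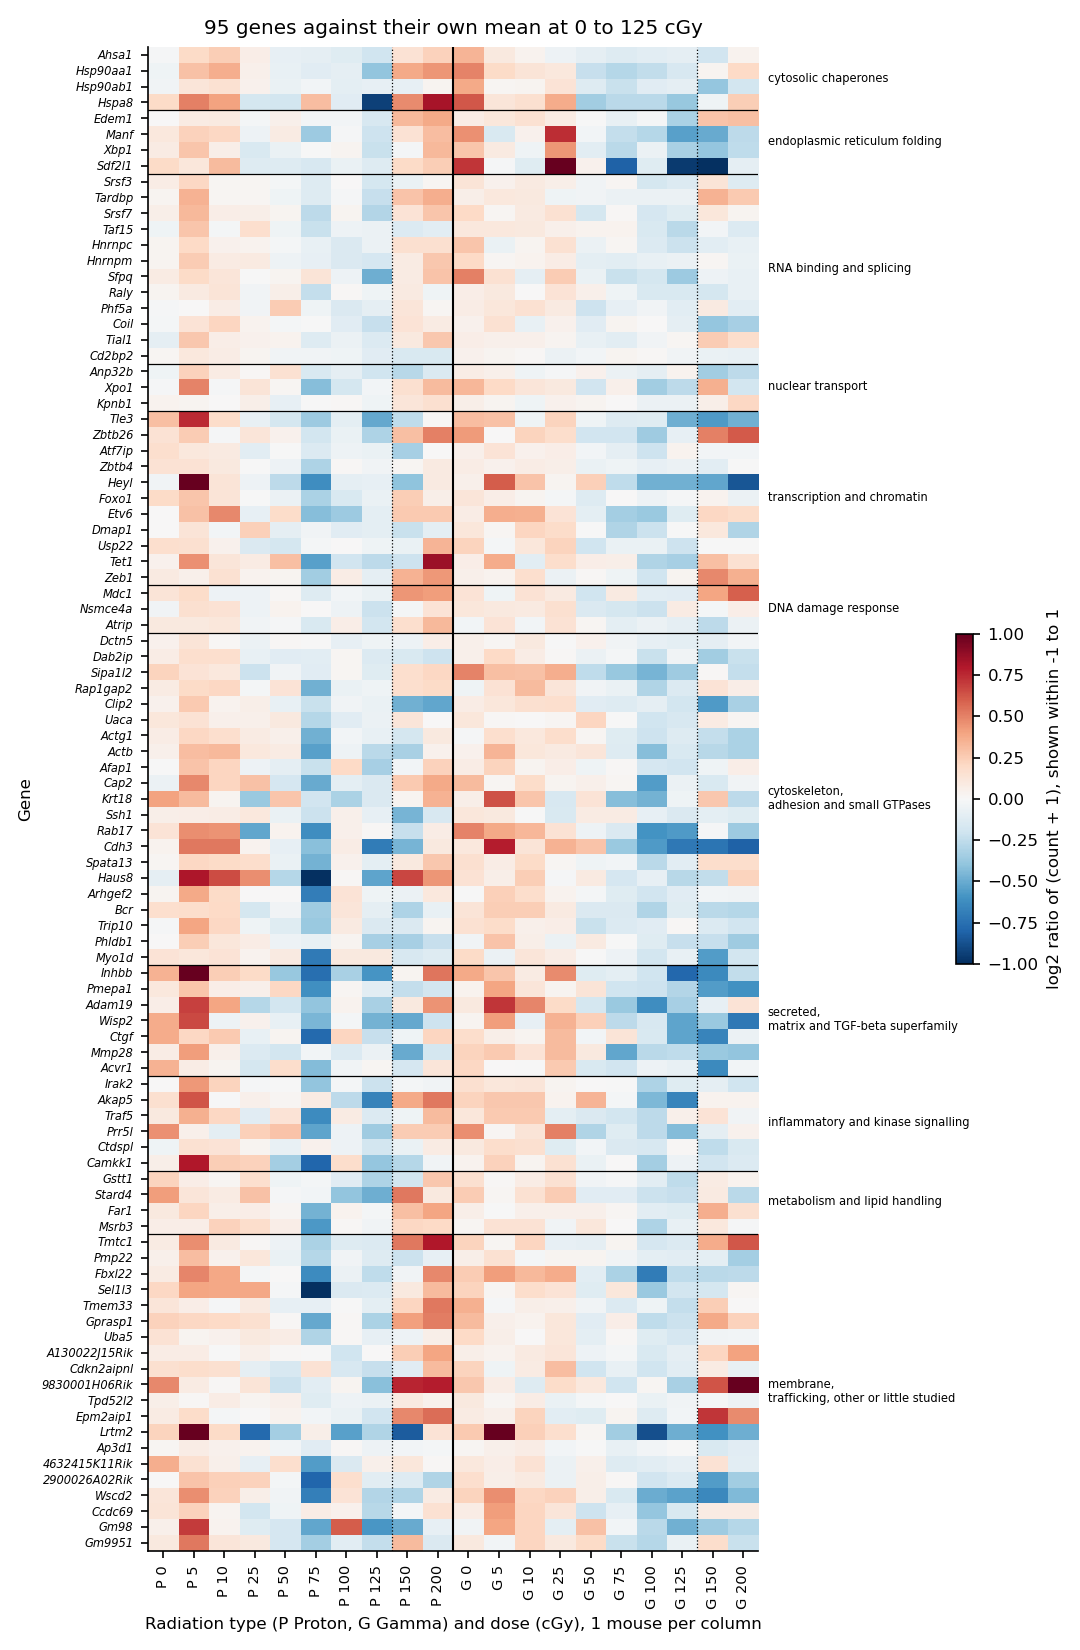
Log2 ratio of count plus 1 to the gene's own mean at 0 to 125 cGy in the same type, for the 95 genes (vertical axis, grouped by role) in the 20 mice (horizontal axis, P for Proton and G for Gamma with the dose in cGy), red for above and blue for below. Color scale ends at -1 and 1. The Proton 5 cGy column is mostly red and the Proton 75 cGy column mostly blue, and the 2 rightmost columns of each type, beyond the dotted line, are mixed.

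The members at the edge of the ranking differed little from the first genes left out. Gm9951, Cd2bp2 and Myo1d, the last inside, had larger correlations of -0.587, -0.575 and -0.575. Hsph1, Ppp1r12b and Bcl7a, the first outside, each had -0.571. Hsph1 (a co-chaperone of HSC70) had 968 and 667 counts at 0 and 125 cGy after protons, and 1824 and 1013 after gamma rays. For Cd2bp2 the same counts were 412 and 377, and 406 and 384.

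The mice at 150 and 200 cGy were not used in the correlations, so they gave a comparison apart from the rule. It asked whether the genes stayed low at the upper doses. The level in these 4 mice was compared with that in the 16 mice at 0 to 125 cGy with edgeR's quasi-likelihood test across 13124 genes, with radiation type as a covariate and Benjamini-Hochberg adjusted p-values under 0.1 as the threshold. The rule used the order of counts over the 16 mice and not their mean. The decline over these mice runs from above that mean to below it, and it adds to the spread in the fit. A gene that was not called can therefore have stayed low or have returned, and the test cannot tell which. Of the 95 genes, 14 (14.7%) were higher at the upper doses, where 16.6% of all genes tested were higher, and 9 (9.47%) were lower, where 11.3% of all genes were lower. Both shares were near those of the background. The fitted difference was above 0 for 52 genes and below 0 for 43, with a median of 0.04 on the log2 scale against -0.02 for all genes tested.

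Against single lower doses, the members' place differed by type. The median gene stood at 0.962 and 1.05 of sham at 150 and 200 cGy after protons, where the median of all ranked genes was 0.989 and 0.983. After gamma rays it stood at 0.879 and 0.847, where the median of all ranked genes was 1.02 and 0.999. After protons 53 and 40 of the 95 genes lay below sham at these doses, and after gamma rays 70 and 76. The same share of all ranked genes was not counted. Below every lower-dose mouse of the type lay 10 (10.5%) and 3 (3.16%) of them after protons, against 16.6% and 18.6% of all ranked genes. After gamma rays it was 25 (26.3%) and 14 (14.7%), against 1838 and 1868 of 9816 ranked genes. Both upper-dose mice lay above both the 100 and the 125 cGy mouse for 49 genes after protons, against 26.0% of ranked genes, and for 41 after gamma rays, against 25.8%. The rule picked genes with high counts at the lowest doses, sham among them, and low counts in the 100 and 125 cGy mice. All these counts therefore describe the choice as well as the upper doses.

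The 14 genes that were higher at 150 and 200 cGy were led by Epm2aip1 (chr9:111174349-111181593), which encodes a partner of the glycogen phosphatase laforin. It had 364 to 471 Proton counts (median 413) and 379 to 484 Gamma counts (median 414.5) below 150 cGy, and 578, 611, 680 and 576 above. All 4 upper-dose mice lay above all 16 others, a difference of 0.57 ± 0.07 (SE, log2; edgeR adjusted p = 1.7e-06). Mdc1 had 181 to 226 Proton counts and 164 to 208 Gamma counts below 150 cGy and 248 to 285 above, again without overlap (0.48 ± 0.07, adjusted p = 1.7e-05). The little-studied gene 9830001H06Rik had 192 to 359 and 171 to 258 counts below, and 435 and 442 after protons and 331 and 452 after gamma rays above, with no overlap within a type (0.82 ± 0.12, adjusted p = 1.8e-05). A130022J15Rik had 242 to 292 and 259 to 313 counts below and 330 to 380 above (0.33 ± 0.06, adjusted p = 1.9e-04). Zeb1, the zinc finger repressor of epithelial genes, had 931 to 1315 and 958 to 1236 counts below and 1408 to 1596 above (0.42 ± 0.07, adjusted p = 2.0e-04). Tmtc1, an O-mannosyltransferase of the endoplasmic reticulum, had 887 to 1524 and 1092 to 1434 counts below and 1590 to 1931 above (0.59 ± 0.11, adjusted p = 2.6e-04). In these 6 genes both upper-dose mice of each type lay above all 8 lower-dose mice of that type. They were named for the smallest p in this comparison, so the separation was largely set by that choice. The share of all genes with the same separation was not counted. Edem1, Tardbp, Zbtb26, Far1, Kpnb1, Gprasp1, Tial1 and Tmem33 were the others, with differences of 0.15 to 0.49.

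The 9 lower genes were led by Clip2 (chr5:134965256-135028304). It had 165 to 231 Proton counts (median 192.5) and 153 to 196 Gamma counts (median 173.0) below 150 cGy, and 138, 134, 117 and 139 above. All 4 lay below all 16 others, a difference of -0.46 ± 0.09 (edgeR adjusted p = 4.5e-04). Anp32b, a histone-binding acidic nuclear protein, had 645 to 869 and 722 to 812 counts below and 611, 669, 605 and 641 above (-0.24 ± 0.07, adjusted p = 0.015). Phldb1, a cortical anchor of microtubules, had 1080 to 1610 and 1246 to 1782 counts below and 1080, 1157, 1244 and 1138 above (-0.28 ± 0.09, adjusted p = 0.032). For these 2 genes the groups met or overlapped after protons and were apart after gamma rays. Dab2ip, a Ras GTPase-activating protein, was lower by -0.22 ± 0.08 (adjusted p = 0.042), Pmepa1 by -0.39 ± 0.14 (adjusted p = 0.046) and Mmp28, the metalloprotease epilysin, by -0.36 ± 0.14 (adjusted p = 0.065). Pmepa1 had 2770 and 2866 counts at the upper doses after protons, inside the range that the 75 cGy mouse (2126) sets, and 2447 and 2379 after gamma rays, below all 8 other mice. Ssh1, Wisp2 and 2900026A02Rik were the others. Without the Proton mouse at 75 cGy 14 members were lower, and without either Gamma mouse at 150 or 200 cGy 4 were. The shares of all genes in those fits are not given, so these counts cannot be set against the background.

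Libraries of the 4 upper-dose mice differed from the rest in base composition, and the members called there differed in the same property. The deviation of a gene's count from its mean correlated with transcript GC content at -0.401 to -0.349 in these 4 libraries and at -0.0182 to 0.284 in the other 16, over 9702 genes, which are not independent replicates. Across the 94 members with a GC content, GC content and the difference at the upper doses had a Pearson correlation of -0.56, against -0.45 over the 9702 genes. These points share the same libraries. The median GC content was 46.3% in the 14 higher genes and 57.0% in the 9 lower ones, against 51.2% in the members and 50.3% in all ranked genes with a GC content. When each library was corrected for GC content and transcript length, 4 members remained higher (A130022J15Rik, 9830001H06Rik, Epm2aip1 and Mdc1) and 3 lower (Clip2, Ssh1 and 2900026A02Rik), all of them among those called before. Under the same correction 7.44% of all 12581 genes with a GC content were higher and 4.98% lower. Tardbp then differed by -0.03 in place of 0.32, and Zeb1 by 0.19 (adjusted p = 0.22).

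**Figure D4:**
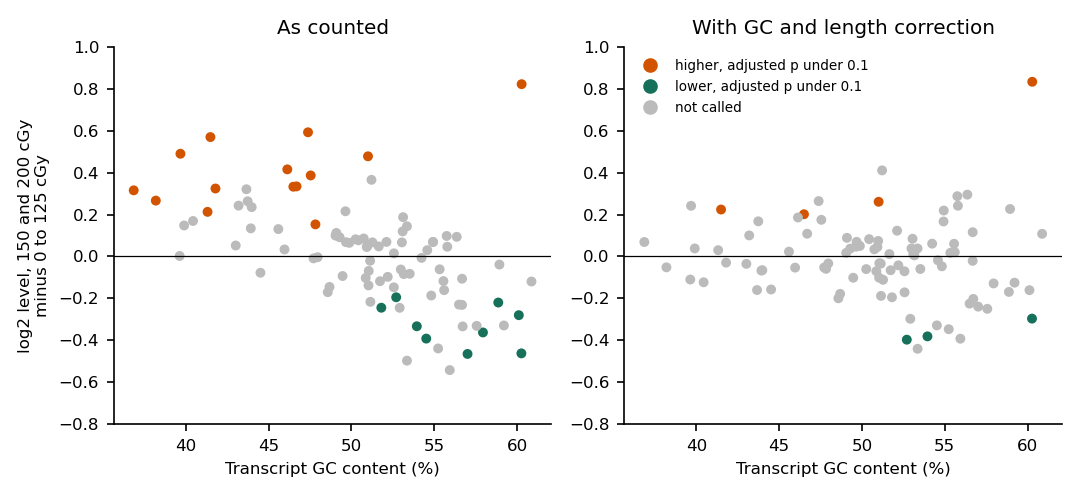
Log2 level at 150 and 200 cGy minus that at 0 to 125 cGy (vertical axis) against transcript GC content in percent (horizontal axis) for 94 of the genes, as counted (left) and corrected within each library for GC content and length of the transcript (right). Orange and green points passed the adjusted p threshold of 0.1 as higher and lower. On the left 14 higher genes lie mostly at low GC and 9 lower ones at high GC, and on the right 4 and 3 remain.

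Within protons alone, with 2 upper-dose mice against 8, 12 members were higher and 1 lower, where 10.6% and 5.00% of all genes were called in these directions. The lower gene was Clip2 (-0.48 ± 0.13, edgeR adjusted p = 0.017). Within gamma rays, 9 members were higher and 5 lower, against 10.7% and 4.72% of all genes. The 5 were Clip2, Anp32b, Dab2ip, Pmepa1 and Coil. After GC and length correction 2 members were higher and 1 lower after protons, against 2.73% and 0.843% of all genes, and 1 was higher and 0 lower after gamma rays, against 2.24% and 1.43%. At an unadjusted p under 0.05, 17 and 2 members were higher and lower after protons, against 14.4% and 9.19% of all genes, and 12 and 11 after gamma rays, against 14.1% and 8.21%.

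The fitted difference at the upper doses was above 0 for 67 of the 95 genes after protons (median 0.13) and below 0 for 65 after gamma rays (median -0.06), against medians of -0.04 and -0.0079 for all genes tested. For 83 of the 95 genes it was more positive after protons, with a median difference between types of 0.15 on the log2 scale against -0.02 over all genes. No single gene carried this past the test of the difference itself, in which 0 of 95 members and 0% of all 13124 genes passed with edgeR, and 0 members with DESeq2. At an unadjusted p under 0.05 there were 3 members, all more positive after protons, where 102 of 13124 genes (0.777%) were more positive after protons and 166 (1.26%) after gamma rays. They were Atrip (0.44 ± 0.15, unadjusted p = 0.0092), Coil (0.50 ± 0.16, p = 0.011) and Xbp1 (0.53 ± 0.23, p = 0.032), each with an edgeR adjusted p of 0.9999. Atrip had 129 and 144 counts at 150 and 200 cGy after protons, above all 8 other Proton mice (101 to 124), and 101 and 116 after gamma rays, where the others ran from 113 to 134. Coil had 75 and 72 counts after protons, inside the other mice's range of 58 to 79, and 57 and 59 after gamma rays. By role, the genes more positive after protons were 2 of 3 DNA damage, 8 of 11 transcription, 9 of 12 RNA-binding, 5 of 6 signalling, 18 of 20 other and 19 of 21 cytoskeletal genes. They were also all 3 nuclear transport, 4 metabolic, 4 chaperone, 4 endoplasmic reticulum and 7 secreted genes. The endoplasmic reticulum genes had a median of 0.25 after protons and -0.39 after gamma rays, and the secreted genes 0.0033 and -0.42. These counts over genes that share 4 upper-dose mice are a description. The lower-dose Proton level includes the 75 cGy mouse, in which 50 of the 95 genes had their lowest Proton count below 150 cGy. The difference between types was not fitted without that mouse, so its part in the 83 genes was not tested. How many of all genes were more positive after protons was not counted. Within the endoplasmic reticulum group the change after gamma rays was 0.28 for Edem1. It was -0.43 for Manf, -0.34 for Xbp1 and -0.81 for Sdf2l1. The lower-dose Gamma level of Manf, Xbp1 and Sdf2l1 includes their high mouse at 25 cGy, whose part was not tested.

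**Figure D5:**
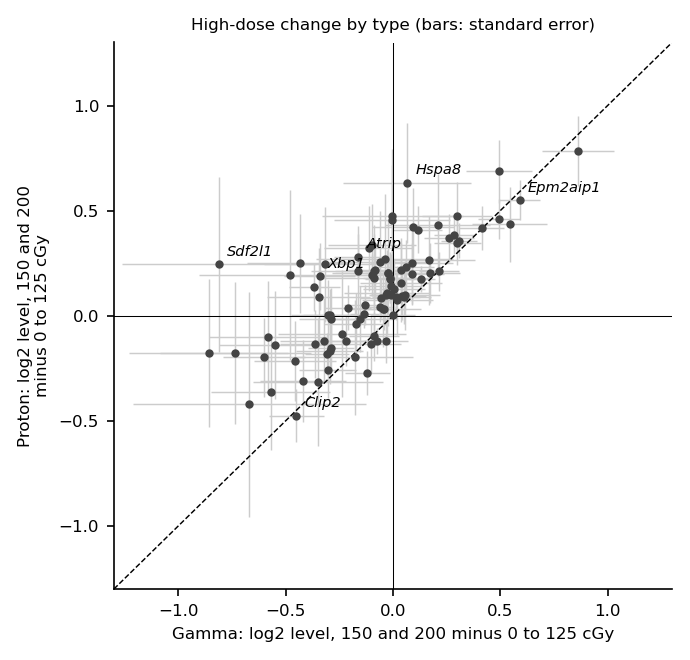
Log2 level at 150 and 200 cGy minus that at 0 to 125 cGy after protons (vertical axis) against the same after gamma rays (horizontal axis) for the 95 genes, with standard errors as bars and a dashed line of equality. Most points, 83 of 95, lie above the line, and Sdf2l1, Xbp1, Hspa8 and Atrip are among them, while Clip2 lies low and Epm2aip1 high in both types.

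At matched dose, the level of the members after protons was compared with that after gamma rays over the 10 pairs of mice, with dose as a block. None of the 95 members passed (0 of 95, against 0% of 13124 genes) with edgeR, while 3 passed with DESeq2, as did 70 of 10325 genes (0.678%) to which it gave an adjusted p. At an unadjusted p under 0.05, 21 members were higher after gamma rays and 5 after protons, against 538 and 494 of all 13124 genes. The fitted level was higher after gamma rays for 68 of the 95 members. The same share of all genes was not counted. The median log2 difference, Proton minus Gamma, was -0.0657 in the members and 0.0133 over all genes tested. The Proton side includes the 75 cGy mouse, in which 50 of the 95 genes had their lowest Proton count below 150 cGy. A sign count without the 75 cGy pair is not given. Hsp90aa1 was higher after gamma rays in 10 of 10 pairs, by 0.37 on the log2 scale (Proton minus Gamma -0.37 ± 0.08, edgeR adjusted p = 0.22, DESeq2 adjusted p = 0.012). Hspa8 was higher after gamma rays in 8 of 10 pairs (-0.46 ± 0.13, edgeR adjusted p = 0.37, DESeq2 0.082). Hsp90ab1 and Ahsa1 were higher after gamma rays in 9 of 10 pairs each (-0.18 ± 0.07 and -0.21 ± 0.06). The sham pair differed the same way, with 3538 against 1831 counts of Hsp90aa1, 10033 against 5085 of Hspa8 and 11692 against 7530 of Hsp90ab1 in mice that received no dose. Haus8, a subunit of the augmin complex of the spindle, was the third gene that DESeq2 called (-0.61 ± 0.16 and adjusted p = 0.35 with edgeR, DESeq2 adjusted p = 0.035). Prr5l, a binding partner of mTORC2, was higher after gamma rays in 9 of 10 pairs (-0.41 ± 0.10, edgeR adjusted p = 0.27). Stard4 had the smallest p and the opposite sign, higher after protons in 10 of 10 pairs (0.35 ± 0.08, adjusted p = 0.22), and 9830001H06Rik was higher after protons in 8 of 10 (0.23 ± 0.06, adjusted p = 0.30).

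The 95 genes were on the whole well measured. Their mean counts ran from 51.3 to 22103 with a median of 472, against 240 for all genes above the minimum of 50. Their transcripts were longer, with a median of 4124.5 bases against 3201.5, and 94 were protein coding. Length and count were not used by the rule beyond the minimum of 50, though a gene with more counts has a dose order less disturbed by counting error. The marker and pathway lists held few of the genes. Besides Heyl, Foxo1, Ctgf, Arhgef2, Clip2, Zeb1, Acvr1 and Pmp22, none was on any of 31 lists of cell type markers and pathways, and the lists of endothelial, fibroblast, macrophage and fat markers had none.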

How the data were processed

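RNA of the thoracic aorta was sequenced in 20 mice. The authors aligned stranded, paired reads of polyA-selected libraries to mouse genome build mm9 with STAR 2.5.2a, resampled them to a common depth with the PORT pipeline, and deposited sense-strand read counts per gene. CASAVA 1.8.1 is also named in the submitters' processing notes. Gene coordinates, transcript lengths and GC contents were taken from GENCODE M1 on the same build.

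Genes that averaged 5 counts or more were tested in edgeR 4.0.16 (TMM, robust quasi-likelihood), 13124 in all, with Benjamini-Hochberg adjustment over all of them and a threshold of 0.1. Tests covered the level at 150 and 200 cGy against 0 to 125 cGy with type as a covariate, the same within each type with the difference between types, and Proton against Gamma with dose as a block. The scripts were tested on simulated data. Alternatives were DESeq2 1.42.0, library sizes without TMM, minimum mean counts of 1 and 50, a correction for GC content and length with smooth terms from mgcv 1.9.3, 0 to 75 cGy as the reference, no block, and leaving out each upper-dose mouse, the Proton mouse at 75 cGy or the pair at 75 cGy. The ranking was repeated with TMM-scaled and GC-corrected values, other minimum counts, a Pearson correlation and without the 75 cGy pair. The rank correlation of the members without the Proton mouse at 75 cGy, and the GC correction within each type, were added after seeing the data. No test compares the dose trend of the rule.

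The members and the lists were chosen with earlier results of these data known. The chaperone, endoplasmic reticulum, RNA-binding and actin lists, and the sorting of members by role, were drawn up after the members were known. Genes named were the 10 members with the lowest larger correlation, the 3 last inside and 3 first outside the ranking, the 6 lower and 6 higher members with the smallest p at 150 and 200 cGy, the 4 and 3 with the smallest p for type and for the difference between types, and members on a list. Others were chosen by role after their values were seen. Each mouse had between 6051657 and 6058006 counts, and 3 counts are 4.95e-05% of a library. That limit covers counting error only, as reads that carry no molecular identifiers need not be independent. The spread in each fit is that between mice of different doses.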

Additional observations from a re-analysis of the deposited data

Results flagged for a closer look

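Within each radiation type, the highest and lowest of the 10 mice were set against their nearest neighbour for the 34 genes named by rule, 68 groups in all, and 5 stood apart by Dixon's 95% criterion on the gap over the range. Chance gives about 1 in 20 groups, and the mice of a type differ in dose, so that a dose response can also set 1 apart. Heyl had 3966 counts in the Proton mouse at 5 cGy, with 2167 in the next mouse, and Inhbb had 162 there, with 97 next. Ahsa1 had 942 counts in the Gamma sham mouse, with 793 next. Myo1d had 798 counts in the Proton mouse at 75 cGy, with 1170 next above it, and Arhgef2 had 1395 there, with 2168 next above it.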

How the results depend on the processing

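The count of members lower at 150 and 200 cGy was 9 and became 3 with the GC and length correction, and 4 to 14 when 1 of the 4 upper-dose mice or the Proton mouse at 75 cGy was left out, with 14 without the Proton mouse at 75 cGy and 4 without either Gamma mouse at the upper doses. The count of higher members was 14 and became 4 with the GC and length correction, and 12 to 15 with 1 of these mice left out. Shares of all genes called with 1 mouse left out are not given, so these ranges cannot be set against the background. Within types the correction, added after seeing the data, moved the higher counts from 12 to 2 (Proton) and from 9 to 1 (Gamma) and the lower count after gamma rays from 5 to 0. Members called between types were 1 without the 75 cGy pair (Sel1l3), 3 with DESeq2, and 0 with edgeR with or without the replicate block, which is the dose. No member was called for the difference between types with edgeR, with the GC and length correction or with DESeq2. The ranking kept 55 of its 100 genes after GC correction and 57 with a Pearson correlation, and 68 to 96 under the other choices.

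Among the 34 genes named by rule the difference at the upper doses changed sign only where it was not called, except for Tardbp. For Tardbp it was -0.0293 after the GC and length correction. For Kpnb1 and Tmem33, called higher but not named by rule, the difference also turned negative there, to -0.0589 and -0.0517. With that correction it became -0.110 for Srsf3, -0.0672 for Stard4, -0.0602 for Foxo1, 0.0053 for Irak2, 0.108 for Inhbb, 0.0382 for Xbp1 and 0.0613 for Arhgef2. Srsf3 was -0.0128 without TMM, -0.0105 with a minimum of 1, -0.0181 with a minimum of 50, -0.0133 with DESeq2 and -0.0404 against 0 to 75 cGy, where Gm9951 was -0.0220. With 1 of the same mice left out, Gstt1 ran from -0.0250 to 0.146, Srsf3 from -0.0363 to 0.0413, Stard4 from -0.0185 to 0.243, Inhbb from -0.335 to 0.0370, Gm9951 from -0.0633 to 0.122, Atrip from -0.0298 to 0.169, Xbp1 from -0.215 to 0.0404, Ctgf from -0.237 to 0.0364 and Arhgef2 from -0.0647 to 0.0147. The cause of these changes was not tested.

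The authors' resampling set the totals nearly equal, so the original depth of each library is not seen in them. With 1 mouse a dose no dose has an error of its own, and 2 upper-dose mice per type give the within-type results. The upper doses differ from the lower ones in GC composition as well, and dose and this property cannot be told apart in these 4 mice.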
